A study of Mus musculus with 2 samples.

Results

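The cells described here came from the lungs of mice taken through a tolerance protocol, set against the lungs of mice taken through an asthma protocol, and they were all cells of both pools that passed fixed quality limits. A cell was kept when at most 20% of its unique molecular identifiers (UMIs, each standing for 1 captured RNA molecule) were from mitochondrial genes, when it held at most 20000 UMIs and when at least 500 genes were detected in it. This kept 6726 of the 10088 cells kept over all 3 pools, with 2701 cells from the tolerance pool and 4025 from the asthma pool, and the 3362 control cells are given only as a background level. All mice were female C57BL/6J of matched age, 8 to a pool. Asthma mice were sensitized by intraperitoneal ovalbumin (OVA) in the adjuvant Alum and then challenged with OVA through the nose. Tolerance mice inhaled OVA before passing through that same sensitization and challenge, so both pools had seen OVA with Alum and OVA in the airway. Control mice received Alum without OVA in the peritoneum and saline in the nose. Lung dendritic cells (DCs) were sorted as MHC class II high, CD11c high cells outside a MerTK, CD64 and Ly6C gate, and alveolar macrophages were sorted beside them, so that the sort as well as the lung set the make-up of each pool.

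The comparison asks what differs in the antigen-presenting cells of a lung that met the allergen by inhalation first. Conventional DCs carry inhaled antigen to T cells. Of their subsets, cDC1 (Xcr1, Clec9a) are known for cross-presentation to CD8 T cells and for IL-12, and cDC2 (Cd209a, Mgl2) for priming CD4 T cells, including Th2 cells in allergy. Alveolar macrophages live in the airspace and clear surfactant and particles, whereas interstitial macrophages (C1qa, C1qb) live in the tissue between airway and vessel. In allergic airway disease, IL-4 and IL-13 drive alternative activation of macrophages, with Arg1, Chil3, Retnla and the eosinophil-attracting chemokine Ccl24 as usual markers, while interferons drive a separate programme of antiviral and antigen-presentation genes.

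Each pool was marked with its own antibody hashtag, equal numbers of cells of the 3 pools were mixed, and 2 such mixes were each run on 1 lane as a technical repeat. With 1 pool a side, no test of the treatment was possible, and the values below on which most rests are given for both lanes or with an exact 95% interval, Clopper-Pearson for shares of cells and conditional for ratios, which covers counting error only and not the spread between mice. The tolerance cells were more deeply read, with a median of 5959 UMIs per cell against 4790 in the asthma cells, and the kept UMIs per pool and lane ranged from 7799169 to 11246373. Of the hashtag counts summed over all barcodes of an asthma or tolerance library, between 98.5% and 98.8% were of its own pool's hashtag. The libraries shared 0 cell barcodes. Both pools passed through the same lanes, so RNA free in a mix was common to them. Cells were assigned to types by gates of marker genes. A separate clustering into 19 clusters placed 93.6% of the gated asthma cells and 92.1% of the gated tolerance cells in a cluster named for the same type. The clusters were named by the marker scores that also set the gates, so their names are not independent of the gates. Most alveolar macrophages of both pools lay in 1 shared cluster (60.04% of asthma and 73.31% of tolerance cells), whereas 56.7% of the control ones lay in another. All 7 markers of mature DCs, all 8 of B cells and all 6 of T cells were highest in their own gate. So were 9 of 10 for alveolar macrophages, 7 of 9 for interstitial macrophages, 7 of 8 for cDC1 and 5 of 7 for cDC2. These same markers set the gates, so this describes the gates and is no separate check of the labels. No gate was reached by 373 asthma cells (9.27%) and 335 tolerance cells (12.4%).

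In percentage points, the largest differences in make-up lay among the macrophages. Interstitial macrophages were 8.57% of the asthma cells (345 cells, 95% interval 7.72 to 9.48%) and 19.1% of the tolerance cells (516 cells, 17.6 to 20.6%), a 2.23-fold higher share. The lanes gave 8.68 and 8.46% in the asthma pool and 19.4 and 18.8% in the tolerance pool, so the pools lay apart in either lane, and the control pool held 1.64%. Alveolar macrophages showed the opposite order, with 42.2% in the asthma pool, 30.1% in the tolerance pool and 71.5% in the control pool. Because alveolar macrophages were sorted and because shares sum to 100%, the interstitial share was also taken outside the alveolar gate, where it was 14.8% in the asthma pool and 27.3% in the tolerance pool (1.84-fold). Within the 2 macrophage gates alone, interstitial cells made up 16.9% of the asthma and 38.8% of the tolerance cells. Interstitial macrophages usually carry MerTK and CD64, on which the DC sort left cells out, and the part of the sort in these shares was not tested.

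Among the DC gates, mature DCs (Ccr7, Fscn1), the state in which DCs leave for the lymph node, were 3.95% of the asthma cells (159 cells) and 2.07% of the tolerance cells (56 cells), a 1.91-fold lower share with an interval of -1.40 to -0.48 for the log2 ratio. They formed 16.2% of the cells of the 3 DC gates in the asthma pool and 10.1% in the tolerance pool. The share of cDC2 was 16.0 and 14.3% and that of cDC1 was 4.42 and 4.22%, and the intervals of both log2 ratios included 0 (-0.35 to 0.02 for cDC2 and -0.42 to 0.28 for cDC1). Outside the alveolar gate the cDC2 share was 27.8 and 20.4%, so a lower value for cDC2 depended on the denominator. Nonclassical monocytes, which patrol the vessel wall, were 4.27 and 4.33%. Smaller gates differed with few cells behind them. Classical monocytes were 12 asthma and 32 tolerance cells (0.298 and 1.18%, a log2 ratio of 1.49 and 2.48 by lane and of 3.51 under a stricter gate), endothelial cells 23 and 49 (0.571 and 1.81%, a log2 ratio of 2.22 and 1.03 by lane), T cells 73 and 74 (1.81 and 2.74%) and B cells 284 and 155 (7.06 and 5.74%). The plot of gate shares shows each lane as a point. In all plotted gates but cDC1 and nonclassical monocytes, both asthma lanes lie on the same side of both tolerance lanes.

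**Figure D1:**
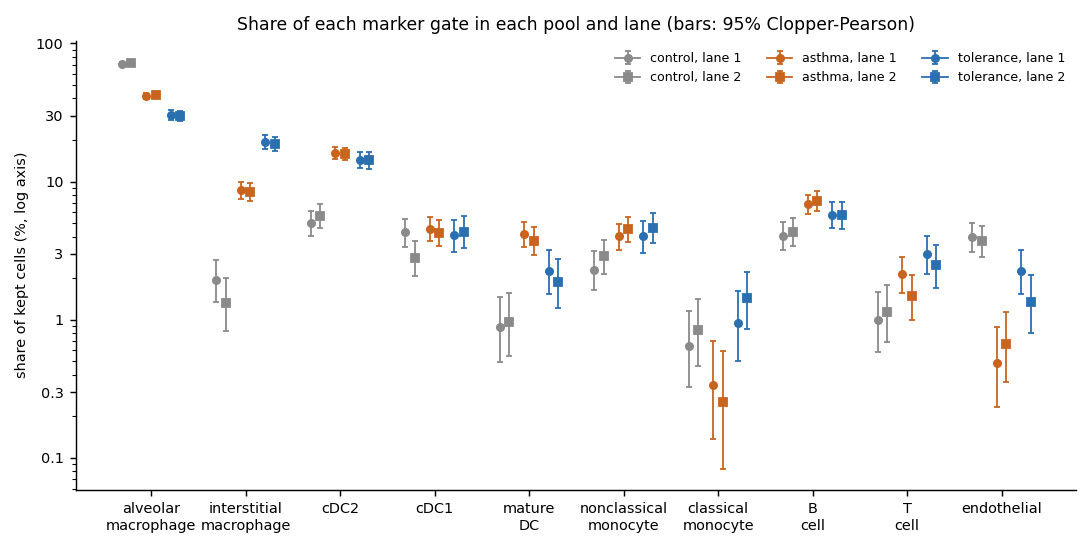
Share of 10 marker gates among the kept cells (percent, log axis) in the control, asthma and tolerance pools; points are the 2 lanes of 1 pool and bars exact 95% intervals over cells (counting error only). Interstitial macrophages were 8.57% of asthma and 19.1% of tolerance cells, mature DCs 3.95% and 2.07%, and alveolar macrophages 42.2% and 30.1%.

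To compare levels inside a gate, the UMIs of its cells were summed per pool and lane and expressed as CPM, the gene's UMIs scaled to a total of 1000000 UMIs in that gate. This sets a gene's level apart from the number of cells in the gate. A gene was counted as apart when its pool ratio was at least 2-fold, with both lanes on that side, among genes with at least 100 UMIs over both pools. In all 6 gates with at least 100 cells a side the median log2 ratio of tolerance over asthma over the genes compared lay between -0.04 and 0.03, and the median gap between the lanes of 1 gene ranged from 0.18 to 0.30 on the log2 scale.

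The alveolar macrophages (1699 asthma and 813 tolerance cells) had 22 genes higher in the tolerance pool, 0.271% of the 8133 compared, and 13 lower, 0.16%. With lane 2 left out 16 were higher and 6 lower, and 14 of these 22 genes were among the 35 of both lanes. The gene farthest apart was Fbp1, fructose-1,6-bisphosphatase of gluconeogenesis (GRCm38, chromosome 13, bases 62864753 to 62888282, minus strand). Its level was 25.4 and 20.6 CPM in the asthma lanes and 164.8 and 126.0 CPM in the tolerance lanes, with 0.304 CPM in the control pool (log2 ratio 2.65, interval 2.42 to 2.89). The lanes of each pool lay close together, and the single cell with most Fbp1 held 6.19% and 4.16% of its UMIs, so no 1 cell made the difference. Serpina3g, a serine protease inhibitor of activated immune cells, was at 17.2 CPM in the asthma and 68.8 CPM in the tolerance pool, with 0.304 CPM in the control pool. Hopx, an atypical homeodomain protein, was at 8.76 and 35.4 CPM, and Msr1, the class A scavenger receptor, at 13.4 and 12.6 CPM in the asthma lanes against 38.9 and 39.1 CPM. The matrix elastase Mmp12 fell just short of the 2-fold limit and was not counted, with 237.4 and 205.5 CPM in the asthma lanes and 493.5 and 389.0 CPM in the tolerance lanes.

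Among the genes lower in tolerance alveolar macrophages were both inducible Hsp70 genes. Hspa1a was at 60.4 and 69.0 CPM in the asthma lanes and 19.4 and 19.4 CPM in the tolerance lanes (log2 ratio -1.73, interval -2.07 to -1.42), and Hspa1b at 72.4 and 22.8 CPM over both lanes. Control alveolar macrophages held 26.7 CPM of Hspa1a, so the asthma pool was the high one of the 3 in this gate. The 2 genes are near-identical neighbours on chromosome 17, and reads may be divided between them. Slc5a3, the myo-inositol transporter, was at 53.7 and 22.8 CPM and Egr3, an immediate-early transcription factor, at 16.1 and 7.40 CPM. The predicted gene Gm20594 was at 41.9 and 15.4 CPM.

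Gene groups gave the alveolar macrophages a broader profile than the single genes did. The lists here and below were chosen with earlier results of these data known. Of the type I interferon response list, all 26 members with at least 100 UMIs had a ratio above 0, with a median log2 ratio of 0.45 beside -0.03 over all genes. Of the 26, 2 were counted as higher, where 0.271% of all genes compared in this gate were. All 6 MHC class II genes lay above 0 with a median of 0.44, and 15 of 18 genes of MHC class I and peptide loading did with a median of 0.26. Cd74, the invariant chain that escorts MHC class II, was at 2898 and 3113 CPM in the asthma lanes and 4133 and 4355 CPM in the tolerance lanes. H2-Q7, a nonclassical class I gene, was at 65.1 and 65.7 CPM against 126.8 and 145.3 CPM, and its reads may be shared with close paralogs. Of the immediate-early and heat shock list 2 of 22 members lay above 0 and the median was -0.18. The alternative activation list had a median of 0.11 with 8 of 15 members above 0, and its most abundant member Chil3, a chitinase-like protein, was at 43457 CPM in the asthma and 52034 CPM in the tolerance pool against 11959 CPM in the control pool.

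Interstitial macrophages (345 asthma and 516 tolerance cells) had the most genes apart of the 6 gates, with 25 higher in the tolerance pool, 0.409% of the 6117 compared, and 22 lower, 0.36%. The higher count was less stable than the lower one, at 9 with lane 2 left out and 12 with 5 counts added in place of 1, against 21 and 22 lower genes. With the cells taken by cluster 60 genes were apart, and only 26 of the 47 counted by gate were among them. The lower genes were led by Ccl24, the chemokine eotaxin-2, which draws eosinophils (GRCm38, chromosome 5, bases 135569937 to 135573049, minus strand). Ccl24 was at 5307 and 4863 CPM in the asthma lanes and 1449 and 1398 CPM in the tolerance lanes (log2 ratio -1.83, interval -1.88 to -1.79), with 11.03 CPM in the control pool. The tolerance level thus lay between those of the other pools, and 61.2% of asthma and 50.2% of tolerance interstitial macrophages held at least 1 Ccl24 UMI before any correction for depth, the deeper tolerance cells included. The 35 asthma and 52 tolerance cells with most Ccl24 held 53.3% and 73.8% of its UMIs. The interval of the ratio does not cover this spread between cells. Only 55 control cells were in this gate, so low control values there, as for Ccl24, rest on few UMIs.

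Most other alternative activation genes had ratios below 0 in interstitial macrophages, none of them by 2-fold. Of the 19 members with at least 100 UMIs, 6 lay above 0, the median log2 ratio was -0.50 (-0.53 and -0.44 by lane) and Ccl24 was the 1 member counted as lower. Over all genes compared in this gate the median was -0.04, and 0.409% were counted as higher and 0.36% as lower. Arg1, arginase 1, was at 950.3 and 849.2 CPM in the asthma lanes and 549.7 and 435.5 CPM in the tolerance lanes. The mannose receptor Mrc1 was at 769.6 and 842.4 CPM against 516.1 and 519.4 CPM, and Pdcd1lg2, the checkpoint ligand PD-L2, at 119.3 and 79.6 CPM against 50.6 and 51.6 CPM. Retnla, the resistin-like secreted protein RELM alpha, was at 3659 CPM in the asthma and 2687 CPM in the tolerance pool. Folr2, the folate receptor of tissue-resident macrophages, was the 1 list member counted as higher, with 16.6 CPM in the asthma and 42.3 CPM in the tolerance pool. The lysosome and cathepsin list had a median of 0.21 with 20 of 25 members above 0, and lysozyme (Lyz2), chosen after its values were seen, was at 4910 CPM in the asthma and 9020 CPM in the tolerance pool.

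Beyond the lists, the genes farthest apart in this gate included Tmem26, a membrane protein, at 53.5 CPM in the asthma and 17.1 CPM in the tolerance pool and at 0 in the control pool, and Prps1, an enzyme of nucleotide synthesis, at 85.1 and 35.9 CPM. Gdf3, a TGF-beta family ligand, was at 25.4 and 61.3 CPM. Saa3, an acute-phase serum amyloid, was at 25.9 and 70.7 CPM, but 1 cell held 80.0% of its asthma UMIs and 1 cell 59.8% of its tolerance UMIs, so its level describes few cells. Hspa1a was at 379.2 and 395.0 CPM in the asthma lanes and 179.8 and 192.2 CPM in the tolerance lanes, lower in tolerance as in the alveolar gate. Alveolar macrophage markers summed to 700.1 CPM in asthma and 365.8 CPM in tolerance interstitial macrophages, with none of the 10 at 0, and their part in the differences of this gate was not tested.

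Ccl17, a chemokine that draws Th2 and regulatory T cells through CCR4 (chromosome 8, bases 94810453 to 94812036, plus strand), was apart in opposite directions in the 2 macrophage gates. In alveolar macrophages it was at 416.3 and 358.7 CPM in the asthma lanes and 783.4 and 768.4 CPM in the tolerance lanes, and in interstitial macrophages at 331.3 and 330.9 CPM against 118.4 and 146.2 CPM. In the interstitial gate 1 tolerance cell held 39.2% of the Ccl17 UMIs, and without the top cell of each pool the log2 ratio was -1.81 in place of -1.31. In the DC gates, where Ccl17 was most abundant, the pools were closer, with 2161 and 1738 CPM in cDC2 and 4437 and 4562 CPM in mature DCs. The plot of single genes by gate sets these levels side by side.

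**Figure D2:**
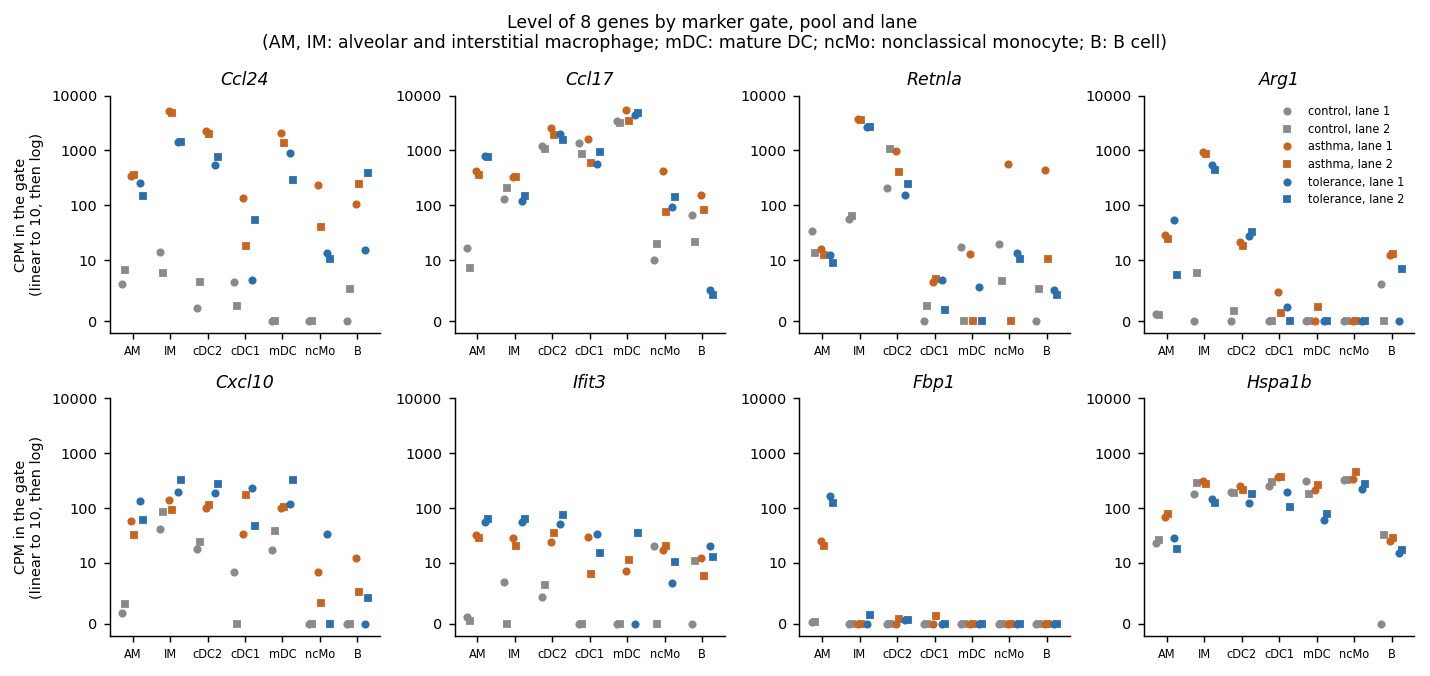
Level of 8 genes (CPM of the gate, axis linear to 10 and log above) in 7 marker gates (AM and IM are alveolar and interstitial macrophages, mDC mature DCs, ncMo nonclassical monocytes, B B cells) in the control, asthma and tolerance pools, with 1 point a lane. Both tolerance lanes of Ccl24 lie below both asthma lanes in the macrophage, cDC2 and mature DC gates, and those of Ccl17 lie above them in AM and below them in IM.

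Interferon-inducible genes were higher in the tolerance pool in several gates. The promoters of 4 of them are shown, each counted as higher in at least 1 of the macrophage and cDC2 gates. These 4 were picked by hand and all hold the motif searched, and other genes counted as higher are not shown. In interstitial macrophages alone, 6 of 27 members of the type I interferon list were counted as higher, where 0.409% of all genes compared were. The promoters shown are the 250 bases before the transcription start in RefSeq (GRCm38.p6), written 5' to 3' on the gene's strand. The motif searched is in capitals. It was GAAA, any 2 bases and GAAA again, on either strand (TTTC, 2 bases and TTTC when read from the other). These are the core letters of the interferon-stimulated response element, a motif known from the promoters of interferon-inducible genes. Ifit1 spans chr19:34640639-34640888 (plus strand), Ifit3 chr19:34583279-34583528 (plus strand), Rsad2 chr12:26456453-26456702 (minus strand) and Cxcl10 chr5:92348890-92349139 (minus strand).
Ifit1: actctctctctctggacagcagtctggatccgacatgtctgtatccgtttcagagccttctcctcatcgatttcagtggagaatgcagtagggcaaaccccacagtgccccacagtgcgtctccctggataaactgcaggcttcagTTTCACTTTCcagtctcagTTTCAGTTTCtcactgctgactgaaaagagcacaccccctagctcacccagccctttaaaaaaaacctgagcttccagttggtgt
Ifit3: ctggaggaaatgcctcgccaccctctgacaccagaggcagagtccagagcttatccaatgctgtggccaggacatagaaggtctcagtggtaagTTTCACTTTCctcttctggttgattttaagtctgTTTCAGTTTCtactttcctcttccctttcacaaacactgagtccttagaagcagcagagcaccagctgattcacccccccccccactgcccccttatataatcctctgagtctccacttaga
Rsad2: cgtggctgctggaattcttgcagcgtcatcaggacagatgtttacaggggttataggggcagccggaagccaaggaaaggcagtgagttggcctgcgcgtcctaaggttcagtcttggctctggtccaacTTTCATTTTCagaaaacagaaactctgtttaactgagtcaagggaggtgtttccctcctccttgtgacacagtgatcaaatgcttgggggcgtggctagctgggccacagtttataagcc
Cxcl10: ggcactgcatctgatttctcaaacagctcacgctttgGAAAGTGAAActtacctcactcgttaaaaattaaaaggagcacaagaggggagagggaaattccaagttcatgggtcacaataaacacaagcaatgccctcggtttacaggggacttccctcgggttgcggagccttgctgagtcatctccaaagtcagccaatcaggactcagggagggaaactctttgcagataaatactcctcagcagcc
The 2 Ifit windows hold 2 matches each and the other windows 1 each, the first of them 104 bases before the start in Ifit1, 156 in Ifit3, 120 in Rsad2 and 213 in Cxcl10. Of the 30 genes of the type I interferon list 22 matched an entry of the promoter table, and 11 of these held the letters, beside 936 of all 27025 genes in the table (3.46%). A match is a description of the letters and not a bound site.

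Cxcl10, which draws CXCR3-bearing T cells, was the 1 gene counted as higher in 3 of the 6 gates. In alveolar macrophages it was at 59.2 and 33.0 CPM in the asthma lanes and 134.4 and 60.7 CPM in the tolerance lanes, in interstitial macrophages at 142.8 and 91.2 CPM against 195.2 and 325.2 CPM, and in cDC2 at 101.4 and 113.4 CPM against 185.5 and 272.3 CPM. In the alveolar gate the lower tolerance lane lay only just above the higher asthma lane. In cDC1 the lanes disagreed, with 33.4 and 173.0 CPM against 234.7 and 46.6 CPM. Cxcl10 UMIs came from few cells, since 2.23% of asthma and 2.74% of tolerance alveolar macrophages held one after every cell had been thinned to 1500 UMIs.

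Rsad2 (viperin, an antiviral enzyme) was at 53.2 and 46.3 CPM in the asthma lanes and 131.4 and 82.7 CPM in the tolerance lanes of the alveolar gate, and at 52.4 and 34.0 CPM against 62.0 and 200.8 CPM in the interstitial gate. Here the second tolerance lane was far above the first. Ifit1 and Ifit3, antiviral proteins that act on foreign RNA, were at 31.2 and 31.1 CPM against 58.0 and 117.3 CPM, and at 27.9 and 20.4 CPM against 56.3 and 63.7 CPM, in interstitial macrophages. Ifit2 was at 28.5 and 78.5 CPM there. Ifit3 was also apart in cDC2, at 24.2 and 35.9 CPM in the asthma lanes and 50.5 and 73.9 CPM in the tolerance lanes. In the control pool Rsad2, Ifit1, Ifit2 and Ifit3 were at most at 7.36 CPM in the interstitial gate, so the asthma pool was itself above the control pool. That control gate held only 55 cells, so these low values rest on few UMIs.

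Over the whole type I interferon list, the median log2 ratio was above that of all genes in each of the 6 gates, at 0.45 in alveolar macrophages, 0.36 in interstitial macrophages, 0.19 in cDC2, 0.40 in cDC1, 0.23 in nonclassical monocytes and 0.12 in B cells. The members above 0 were 26 of 26, 23 of 27, 23 of 25, 13 of 15, 5 of 6 and 2 of 4, and those counted as higher were 2, 6, 1, 0, 0 and 0, where 0.271, 0.409, 0.101, 0.214, 0.139 and 0.0635% of all genes were. By lane the median was 0.22 and 0.46 in interstitial macrophages and 0.47 and 0.21 in cDC1. The list of interferon-gamma inducible genes, which shares several members with the first, had medians of 0.31 in alveolar macrophages, 0.35 in interstitial macrophages, 0.10 in cDC2 and 0.29 in cDC1. In no gate did most members reach 2-fold, and in B cells and nonclassical monocytes few members could be measured.

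**Figure D3:**
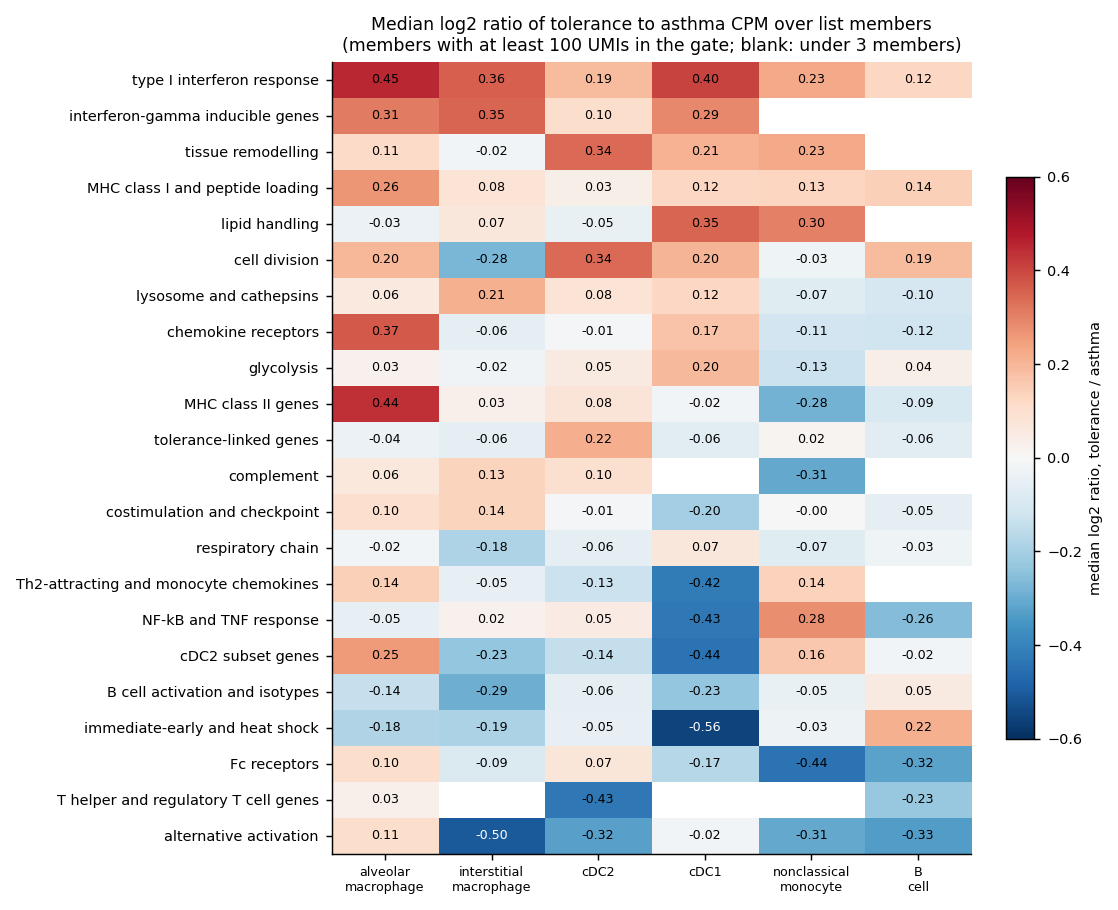
Median log2 ratio (tolerance over asthma) of the genes of each list in each gate with at least 100 cells a side. Red lies above and blue below 0, and cells are blank where under 3 members could be compared. The lists were chosen with earlier results of these data known. The type I interferon list lies above 0 in all 6 gates, alternative activation is at -0.50 in interstitial macrophages and -0.32 in cDC2, and immediate-early and heat shock genes are at -0.56 in cDC1.

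Counted per cell after thinning to 1500 UMIs, the share of alveolar macrophages with at least 5 UMIs of the type I interferon list was 30.6% in the asthma pool (28.3 to 32.8%) and 37.3% in the tolerance pool (34.0 to 40.8%), with 0.334% in the control pool. In B cells the share was 14.9% (10.4 to 20.4%) and 26.8% (19.3 to 35.4%), in cDC1 20.7% (14.9 to 27.5%) and 27.7% (19.6 to 36.9%), in cDC2 24.1% (20.8 to 27.6%) and 26.6% (22.3 to 31.4%) and in interstitial macrophages 42.9% (37.4 to 48.4%) and 45.8% (41.4 to 50.3%). The tolerance share was the lower one in nonclassical monocytes (29.5 and 29.2%), mature DCs (36.3 and 34.5%), T cells (28.3 and 24.6%) and ungated cells (45.0 and 42.9%), although the CPM of the list was higher in the tolerance pool in these gates, so no order is read from them. Outside the alveolar gate the intervals of the pools overlapped in all of these gates. Without thinning the alveolar values were 59.1 and 69.6%. The step from control to either OVA-exposed pool was thus far larger in alveolar macrophages than the step between those pools.

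**Figure D4:**
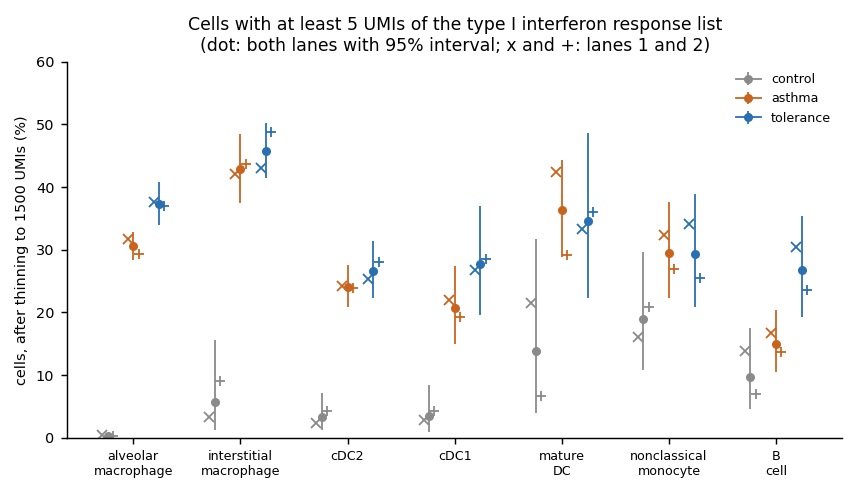
Share of cells (percent) with at least 5 UMIs of the type I interferon list after thinning to 1500 UMIs, by gate and pool; dots are both lanes together, crosses and plus signs lanes 1 and 2, and error bars are exact 95% binomial intervals over cells and cover counting error only. Alveolar macrophages were at 0.334% in the control, 30.6% in the asthma and 37.3% in the tolerance pool.

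In cDC2 (646 asthma and 386 tolerance cells) 7 genes were higher in the tolerance pool, 0.101% of the 6901 compared, and 19 lower, 0.275%. Leaving out lane 1 gave 4 and 14, and leaving out lane 2 gave 9 and 15. The lower genes again included Ccl24, at 2261 and 2036 CPM in the asthma lanes and 546.2 and 748.0 CPM in the tolerance lanes. The clustering placed 502 asthma and 293 tolerance cells of this gate in a cluster named cDC2, where Ccl24 was at 1476 and 268.0 CPM, 5.50-fold lower in the tolerance pool, and the macrophage gene C1qa was at 6.05 and 6.16 CPM. Another 104 asthma and 82 tolerance cells (16.1 and 21.2% of the gate) fell into clusters named for interstitial macrophages, where C1qa was at 232.9 and 222.0 CPM and Ccl24 at 5576 and 2121 CPM. The lower Ccl24 level was therefore measured with and without these cells. Retnla, at 963.4 and 404.4 CPM against 153.0 and 246.5 CPM in the whole gate, was by contrast almost all in the cells of the second kind, with 30.5 and 5.75 CPM in the cluster named cDC2.

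Other genes lower in tolerance cDC2 were Mt2, a metallothionein, at 36.4 CPM in the asthma against 12.9 CPM in the tolerance pool, and the claudin-domain gene Cldnd1, at 243.6 and 226.9 CPM against 96.9 and 101.5 CPM. Tbc1d4, a Rab GTPase regulator, was at 74.7 and 33.9 CPM and the monocyte-attracting chemokine Ccl2 at 49.4 and 19.8 CPM. Aldh1a2, the retinoic acid enzyme linked to the induction of regulatory T cells, was at 39.1 and 18.3 CPM against 14.5 and 10.3 CPM in cDC2. In mature DCs, which held far more of it, Aldh1a2 was at 518.2 CPM in the asthma and 500.2 CPM in the tolerance pool.

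Higher in tolerance cDC2, besides Cxcl10 and Ifit3, were Tk1, thymidine kinase of S phase, at 17.6 and 37.0 CPM and Thbs1, thrombospondin 1, at 10.2 and 9.51 CPM in the asthma lanes against 19.4 and 24.1 CPM. Hmox1, heme oxygenase, was at 10.2 and 22.6 CPM, but 1 tolerance cell held 44.4% of its UMIs and the log2 ratio without the top cells was 0.42 in place of 1.13. The cell division list lay above 0 for 22 of 24 members with a median of 0.34 (0.30 and 0.35 by lane), and the alternative activation list had a median of -0.32 with 6 of 15 members above 0. The list of cDC2 subset genes had a median of -0.14 with 7 of 18 members above 0 and 0 apart, and the marker Cd209a was at 864.1 and 722.2 CPM in the whole gate. MHC class II genes had a median of 0.08.

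**Figure D5:**
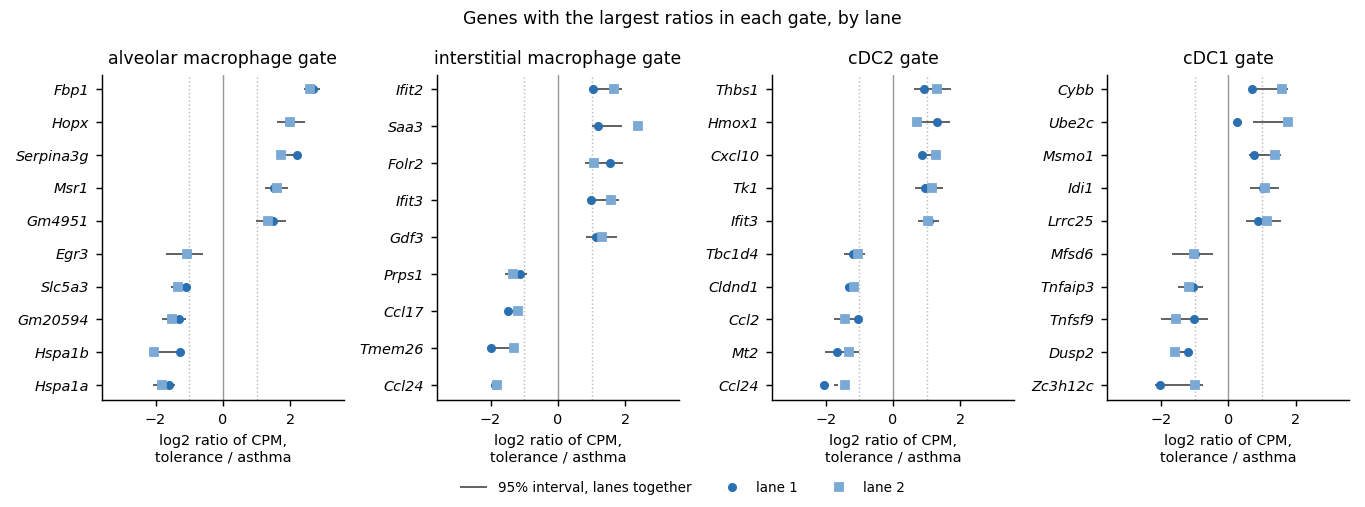
Log2 ratio of CPM, tolerance over asthma, of the up to 5 higher and 5 lower non-marker genes named in 4 gates (4 lower in the interstitial gate); points are the 2 lanes, bars the exact 95% interval of both lanes together (counting error only) and dotted lines mark 2-fold. Fbp1 in alveolar macrophages (2.65 over both lanes) lies farthest above 0, and Ccl24 lies below -1 in both lanes of the interstitial macrophage (-1.83) and cDC2 (-1.70) gates.

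The cDC1 gate (178 asthma and 114 tolerance cells) had 7 genes higher in the tolerance pool, 0.214% of the 3270 compared, and 12 lower, 0.367%. From lane 2 alone 4 were higher and 16 lower, and from lane 1 alone 7 and 21, but only 7 and 5 of those genes were among the 19 of both lanes. Of the 12 lower genes 3 were on the immediate-early and heat shock list and 2 on the NF-kB and TNF response list. Dusp2, a phosphatase that shuts off MAP kinases, was at 363.2 and 265.0 CPM in the asthma lanes and 156.5 and 87.6 CPM in the tolerance lanes. Tnfaip3 (A20, an inhibitor of NF-kB signalling) was at 229.4 and 145.5 CPM against 109.5 and 63.4 CPM. The cytokine gene Tnf was at 127.4 and 27.5 CPM against 49.2 and 14.9 CPM, so that its second asthma lane lay below its first tolerance lane. Tnfsf9, the costimulatory ligand 4-1BBL, was at 59.0 and 24.4 CPM and Zc3h12c, an RNA-binding regulator of inflammation, at 63.4 and 23.4 CPM.

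Of the immediate-early and heat shock list 1 of 22 members lay above 0 in cDC1, with a median of -0.56 and 3 members counted as lower. Of the NF-kB and TNF response list 3 of 16 lay above 0, with a median of -0.43 and 2 counted as lower. Over all genes compared in cDC1 the median was 0.025 and 0.367% were counted as lower. Control cDC1 held 578.4 CPM of Dusp2 and 227.3 CPM of Tnfaip3, at or above the asthma level, so in these genes the tolerance pool was the low one of the 3. Hspa1b was at 374.3 and 363.8 CPM in the asthma lanes and 196.7 and 106.3 CPM in the tolerance lanes, with 271.6 CPM in the control pool. Heat shock and immediate-early genes are known to respond to tissue dissociation, and the part of handling in these values was not tested. Il12b, the shared subunit of IL-12 and IL-23, was at 76.5 and 72.8 CPM in the asthma lanes and 38.0 and 16.8 CPM in the tolerance lanes of cDC1, where 1 asthma cell held 36.6% of its UMIs, and in mature DCs at 387.0 and 462.8 CPM.

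Higher in tolerance cDC1 were Idi1 and Msmo1, enzymes of cholesterol synthesis, at 58.9 and 50.8 CPM in the asthma lanes against 120.7 and 110.0 CPM, and at 54.2 and 38.4 CPM against 91.7 and 102.6 CPM. The lipid handling list had a median of 0.35 with 8 of 10 members above 0, but its lanes gave 0.06 and 0.59. Lrrc25, an inhibitor of innate signalling, was at 40.6 and 83.4 CPM. For Cybb, the NADPH oxidase subunit gp91phox, and Ube2c, a ubiquitin-conjugating enzyme of mitosis, 1 tolerance cell held 33.8% and 35.7% of the UMIs, and the log2 ratio of Cybb turned from 1.22 to -1.13 when cells were taken by cluster.

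Mature DCs were too few for the count of genes (159 and 56 cells), and selected genes only are given. Ccl24 was at 1735 CPM in the asthma and 597.9 CPM in the tolerance pool (208 UMIs in the latter), with 0 in the control pool. Hspa1a was at 352.8 and 375.2 CPM against 72.4 and 89.2 CPM and at 511.7 CPM in the control pool. The Ccr4 ligand Ccl22 was at 3833 and 3036 CPM. The order of Ccl24 and Hspa1a was thus the one seen in the macrophage gates.

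In nonclassical monocytes (172 and 117 cells) 2 of 1434 genes (0.139%) were higher and 4 (0.279%) lower, and from either lane alone 2 of these 6 genes were found again. Chil3, at 315.8 and 1250 CPM, owed 72.4% of its tolerance UMIs to 1 cell and had a log2 ratio of 0.30 without the top cells. Fabp5, a fatty acid binding protein, was at 312.5 and 197.7 CPM against 1023 and 487.6 CPM. Without the top cells 0 genes were counted as higher, so Fabp5 was then not counted either. The chemokine receptor Ccr2 was at 274.0 and 217.8 CPM in the asthma lanes and 86.9 and 124.5 CPM in the tolerance lanes, on 129 and 37 UMIs. The 7 cDC2 markers together were at 396.6 CPM in the asthma and 178.2 CPM in the tolerance pool of this gate, with none of the 7 at 0, and their part in the values was not tested. Both higher genes lay below 0 when the cells were taken by cluster in place of by gate.

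B cells (284 and 155 cells) had 1 gene higher of 1575, 0.0635%, and 11 lower, 0.698%. This balance was not seen within lanes, with 4 higher and 1 lower gene from lane 2 alone and 3 and 4 from lane 1 alone. The higher gene was Klf4, a transcription factor of quiescent cells, at 86.2 and 112.9 CPM in the asthma lanes and 153.4 and 244.1 CPM in the tolerance lanes. The lower genes included Ifitm3 at 164.4 and 42.0 CPM and Il1b at 229.6 and 65.3 CPM, genes of myeloid cells more than of B cells. The 10 alveolar macrophage markers together had a log2 ratio of -1.25 in the B cell gate, the 9 interstitial macrophage markers of -1.30 and the 5 nonclassical monocyte markers of -1.82, and the part of other cells' RNA in these values was not tested. Of the list of B cell activation and isotype genes 13 members had at least 100 UMIs, 0 were apart and the median was 0.05.

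Summed over all kept cells, 100 of 10412 genes (0.96%) were higher in the tolerance pool and 26 (0.25%) lower. In such a sum, more cells of a type and more RNA per cell cannot be told apart, so each ratio was split into the ratio given by the UMI mix of the gates alone, at asthma levels, and the ratio given by the levels within gates alone. Interstitial macrophages gave 9.07% of all asthma UMIs and 22.04% of tolerance UMIs. Mix alone reached 2-fold for 39 of the 100 higher genes and was the larger component in 71, and levels alone reached it for 12. Of the 26 lower genes mix alone reached 2-fold for 0, and levels alone for 11. Fbp1 had a log2 ratio of -0.35 by mix and 2.59 by level, whereas Tmem119, a membrane protein of tissue macrophages, had 1.17 by mix and 0.59 by level.

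The cells also carried an antibody tag against CLEC12A, a C-type lectin that binds uric acid and dead cells. Its median count per cell was 36 in asthma and 55 in tolerance alveolar macrophages and 29 in the control pool, 47 and 65 in interstitial macrophages, 31 and 29 in cDC2 and 92 and 80.5 in cDC1. Per 1000 RNA UMIs of the same cells, the alveolar values were 9.25 and 11.6, the cDC1 values 13.5 and 10.2, the cDC2 values 5.64 and 5.06 and the interstitial values 10.2 and 10.4, so that the interstitial difference was close to the difference in depth. Clec12a RNA was at 55.6 and 49.1 CPM in the asthma lanes and 79.4 and 72.1 CPM in the tolerance lanes of the alveolar gate, and at 137.0 and 212.9 CPM in the interstitial gate.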

How the data were processed

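Single-cell RNA libraries of sorted lung cells from 3 pools of 8 mice were run on 2 lanes. The deposited files hold counts, the whole-number UMIs per gene and cell that the authors made with Cell Ranger 3.1.0 (with STAR, mm10), and 4 antibody tags per cell; Seurat 3.1.5 is also named in the submitters' processing notes. Per pool and lane, 1458 to 2182 barcodes were present. Cells were gated by mean marker score (at least 0.15, leading the next type by 0.05). They were also clustered for comparison (scanpy 1.11.5, Python 3.11.15), with clusters named by the same scores. UMIs were summed per pool, gate and lane, 1 count was added for each ratio, and exact intervals were computed with scipy 1.17.1. No doublets were removed: Scrublet called 3 cells of lane 1 and 6 of lane 2 (0.0585 and 0.121%), too few to be of use, and removing the 2% of cells with the highest scores was tried. Named genes were, per gate, up to 5 higher and 5 lower non-marker genes with the largest ratio in their weaker lane, and up to 4 or biologically described members of 22 lists, besides gate markers and tags; mature DC genes and those said to be chosen otherwise fall outside this. A gene that this rule names is not reported here. The members and lists were chosen with earlier results of these data known. Gene IDs of 30934 of 31053 genes matched the annotation. The summing and counting steps were tested on simulated data. The alternatives with a lead of 0.1, without the top cells and outside the alveolar gate were added after seeing the data. All alternatives for the list medians were likewise not planned beforehand.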

Additional observations from a re-analysis of the deposited data

Results flagged for a closer look

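Ccl17 stood out because the same contrast, tolerance over asthma, had opposite signs in 2 cell types with both lanes of each on the same side. In the alveolar macrophage gate the log2 ratio was 1.00, and in the interstitial macrophage gate it was -1.31. The difference between the gates was not tested, since each treatment was 1 pool.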

How the results depend on the processing

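No paired analysis was possible because each treatment was 1 pool read on 2 technical lanes and no test was made. Of the named genes inside gates, 697 of 830 values kept their direction and stayed at or above 2-fold, 130 were under 2-fold, and 3 reversed, all with the cells taken by cluster: Chil3 (-0.26) and Fabp5 (-0.73) in nonclassical monocytes and Cybb (-1.13) in cDC1. The cause was not tested.

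With no minimum on UMIs the numbers of genes apart were 1478 in alveolar macrophages, 1558 in interstitial macrophages, 1537 in cDC2, 1805 in cDC1, 1774 in nonclassical monocytes, 1908 in B cells and 2327 over all cells, since genes of few UMIs then entered. Adding 5 counts left 6 genes in B cells, and dropping the top cells left 3 in nonclassical monocytes. With either lane left out, the numbers ranged from 22 to 36 in alveolar macrophages, 30 to 43 in interstitial macrophages, 18 to 24 in cDC2, 20 to 28 in cDC1, 5 to 9 in nonclassical monocytes, 5 to 7 in B cells and 85 to 90 over all cells. Without lane 1 and without lane 2, the genes also counted from both lanes were 19 and 14 of 35, 28 and 16 of 47, 11 and 10 of 26, 7 and 5 of 19, 2 and 2 of 6, 1 and 2 of 12, and 65 and 62 of 126, so totals of like size held largely different genes in the small gates. Fewer genes reach 100 UMIs in 1 lane. With the cells taken by cluster, the genes also counted by gate were 31 of 35 in alveolar macrophages, 26 of 47 in interstitial macrophages and 13 of 26 in cDC2. They were 11 of 19 in cDC1, 2 of 6 in nonclassical monocytes and 4 of 12 in B cells.

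Outside the alveolar gate the log2 ratio of shares was 0.88 for interstitial macrophages and -0.44 for cDC2, and with a lead of 0.1 it was 3.51 for classical monocytes. By cluster, the type I interferon median was 0.51 in alveolar macrophages, 0.55 in interstitial macrophages, 0.38 in cDC2 and 0.27 in cDC1 (0.40 by gate), and without likely doublets the MHC class II median in alveolar macrophages was 0.49. With either lane left out, list medians ranged from -0.60 to -0.39 for NF-kB and -0.53 to -0.44 for immediate-early genes in cDC1, -0.53 to -0.44 for alternative activation in interstitial macrophages, 0.30 to 0.35 for cell division in cDC2, and 0.21 to 0.47 and 0.19 to 0.24 for type I interferon in cDC1 and cDC2.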

Other observations

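In the respiratory chain and glycolysis lists no member was 2-fold apart in any gate compared. Between 0.0635 and 0.698% of all genes were counted in either direction in these gates, so lists of this size would seldom hold 1. In the lipid handling list Fabp5 was counted as higher in nonclassical monocytes. It was not counted without the top cells and lay below 0 with the cells taken by cluster. The respiratory chain list had median log2 ratios from -0.18 in interstitial macrophages, where 3 of 22 members lay above 0, to 0.07 in cDC1, with 2 of 22 above 0 in cDC2 at a median of -0.06, and glycolysis from -0.13 in nonclassical monocytes to 0.20 in cDC1. MHC class II genes, at 0.44 in alveolar macrophages, were between -0.02 and 0.08 in cDC1, cDC2 and interstitial macrophages, and at -0.28 in nonclassical monocytes, where 0 of 6 members lay above 0.

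T cells were too few for a count of genes (73 asthma and 74 tolerance cells). Cd8a was at 174.3 CPM in the asthma and 168.9 CPM in the tolerance pool, Cd4 at 80.1 and 101.3 CPM, and Foxp3, the transcription factor of regulatory T cells, rested on 8 and 11 UMIs. The chemokine Ccl5 was at 499.3 and 802.1 CPM in this gate.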
